A study of Mus musculus with 6 samples.

Results

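The cells described here are type 2 dendritic cells that carry Cd209a RNA, and they were found in each of 6 single-cell RNA sequencing libraries. A library holds the cells of 1 mouse, and each mouse had another treatment. Of 57078 deposited cells, 51633 had at least 250 genes and at most 5% mitochondrial UMIs (unique molecular identifiers, each counting 1 captured RNA molecule), and 410 of these, 0.794%, were type 2 dendritic cells by the rule below. A cell was kept when it had at least 2 Cd209a UMIs and at least 1 UMI of Flt3 and Zbtb46 together, which mark cells of the dendritic lineage. It was left out with more than 1 UMI of Xcr1 and Clec9a (type 1 dendritic cells), more than 5 of C1qa, C1qb and C1qc (macrophages), more than 2 of Ly6c2 (classical monocytes) or more than 1 of Ace, Treml4 and Adgre4 (patrolling monocytes). Cells with any Cd3d, Cd3e, Cd3g or Cd79a UMI (lymphocytes), or with at least 2 UMIs each of Ccr7 and Fscn1 (mature migratory dendritic cells), were left out as well. These genes chose the cells, so their levels are given as a description only.

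The mice were female C57BL/6 mice of 6 to 8 weeks that carried KPCA tumors in the ovary, an orthotopic model of ovarian cancer, as the study's methods describe it. The tissue named in the sample labels is lymph node and the series text mentions age groups, which the files do not settle. The control mouse received solvent and a control rat IgG. 2DG (2-deoxy-D-glucose, a glucose analog that also interferes with the building of N-glycans) was injected at 500 mg/kg every 2 days from day 9. 2FF (2-fluorofucose, which blocks fucosylation) was given by gavage every 2 days, and the tumor cells of both 2FF groups had been kept in 300 µM 2FF before injection. An antibody that blocks PD-L1, a checkpoint ligand, was injected 2 times weekly at 5 mg/kg over 3 weeks once day 9 had passed, and mice were killed on day 30. The 6 groups were the control, 2DG alone, 2FF alone, the antibody alone (anti-PD-L1), then 2DG combined with it and last 2FF combined with it, and sets of 6 values follow this order.

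Type 2 conventional dendritic cells take up antigen, load it on MHC class II and present it to CD4 T cells. They depend on the growth factor receptor Flt3 and are usually told from type 1 dendritic cells by the surface protein Sirpa and the transcription factor Irf4, while type 1 cells rely on Irf8 and Batf3 and present antigen to CD8 T cells. Cd209a is a mouse relative of the human lectin DC-SIGN, Clec10a and Mgl2 are paralogous C-type lectins that bind galactose and N-acetylgalactosamine, and Ccl17 is a chemokine that draws T cells carrying Ccr4. Cd209a lies on chromosome 8 (3743397 to 3748984, minus strand) and Ccl17 on the same chromosome (94810453 to 94812036, plus strand), in the GRCm38 assembly with the GENCODE M21 annotation. Mgl2 (70130329 to 70137550) and Clec10a (70156197 to 70170834) neighbour each other on the plus strand of chromosome 11. Reads that fit more than 1 near-identical copy, in the Cd209 family or between Clec10a and Mgl2, could be left out or misassigned in the authors' counting. The levels of single members are therefore uncertain.

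The libraries held 50, 65, 65, 80, 85 and 65 type 2 dendritic cells, which were 0.551%, 0.844%, 0.705%, 0.909%, 0.942% and 0.833% of the cells that passed. The control share was the lowest, with an exact Clopper-Pearson interval of 0.409% to 0.726%, and the share with 2DG plus anti-PD-L1 the highest (0.753% to 1.16%). Intervals here are 95% intervals and cover counting error only. With 1 mouse per treatment no test was made between any 2 treatments (a fit over 3 pairs of libraries is given with anti-PD-L1 below), and a difference between mice cannot be told apart from a treatment effect. Among the cells of the 3 dendritic gates (type 2, type 1 and mature migratory, 1238 cells), type 2 cells made up 22.7% of the control (17.4% to 28.8%), 25.1% with 2DG, 31.9% with 2FF, 33.8% with anti-PD-L1, 53.1% with 2DG plus anti-PD-L1 (45.1% to 61.0%) and 41.1% with 2FF plus anti-PD-L1. Both combination libraries stood highest on this measure, and they also held the smallest shares of the other 2 gates among all cells, at 0.310% and 0.474% for type 1 and 0.521% and 0.717% for mature cells. As a share of all cells, type 2 cells with 2FF plus anti-PD-L1 lay below those with 2DG or anti-PD-L1 alone.

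**Figure D1:**
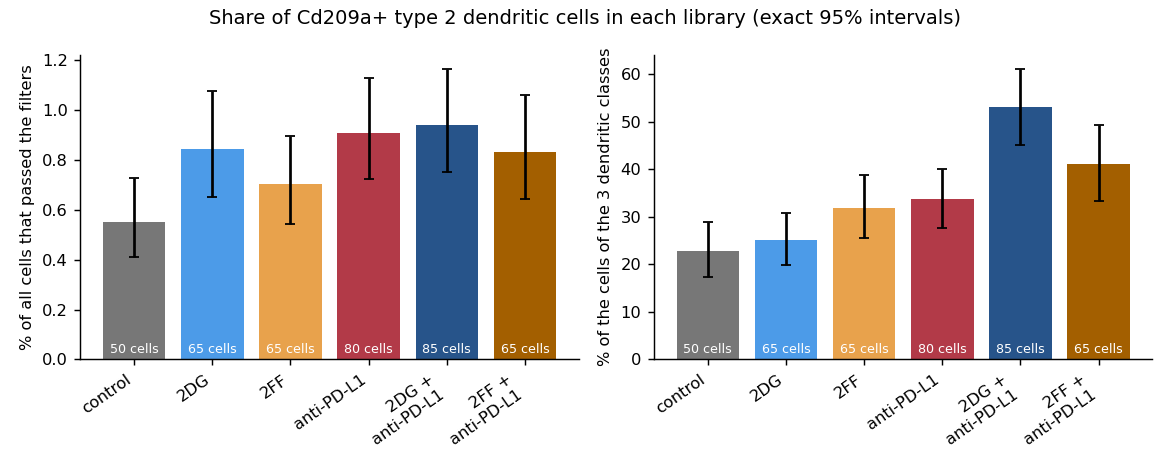
Share of Cd209a+ type 2 dendritic cells in each library, as a percentage of all cells that passed the filters and as a percentage of the cells of the 3 dendritic gates, with exact 95% Clopper-Pearson intervals for counting error. The control library is the lowest on both measures (0.551% and 22.7%), and 2DG plus anti-PD-L1 is the highest (0.942% and 53.1%).

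The requirement for Flt3 or Zbtb46 decided much of the count. At least 2 Cd209a UMIs were found in 74, 156, 170, 190, 270 and 173 cells, and 59, 105, 98, 123, 132 and 96 of them also had Flt3 or Zbtb46 UMIs. Cd209a itself had a median of 7 UMIs per member and a range of 2 to 56. At the threshold, 52 members had exactly 2 UMIs and 45 had 3, while 108 cells that met every other part of the rule had 1. Mgl2 stood at 561 CPM (a gene's UMIs in the cells, scaled to the same total of UMIs) in the members with 2 Cd209a UMIs and at 562 CPM in the cells with 1, Clec10a at 100.1 and 135 CPM, and Ccl17 at 713 and 895 CPM. Lyz2, a gene of monocytes and macrophages, stood at 85.8 and 237 CPM. In the members with 3 and with at least 4 Cd209a UMIs, Clec10a stood at 223 and 344 CPM and Lyz2 at 348 and 398 CPM, both above the cells on either side of the threshold.

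The 410 cells held 4417861 UMIs, with a median of 9879.5 per cell. The median per library was 14250, 10936, 8456, 8711.5, 8370 and 10644 UMIs, so the type 2 cells of the control held the most UMIs. Over all cells that passed, the control library had the lowest median (6196 UMIs), and the source of this difference was not tested. No barcode of a type 2 dendritic cell was shared between libraries, although 16 to 34 barcodes of any cell were shared by each pair of libraries. The most abundant RNAs were Gm42418 (30432 CPM, a transcript that overlaps ribosomal RNA), Actb (12552 CPM, cytoskeletal actin), Cd74 (12089.8 CPM, the MHC class II invariant chain), Tmsb4x and Malat1. They were followed by the MHC class II chains H2-Ab1 (5526 CPM), H2-Aa (5047 CPM) and H2-Eb1 (4445 CPM), by Tpt1 and by Cst3 (4015 CPM, the protease inhibitor cystatin C). CPM are not divided by transcript length, and whether they include intronic reads, which would raise long genes such as Ctnnd2, Adam23 and Nav2, is not settled by the sources.

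The dendritic identity of the cells was checked mainly with genes that the rule did not use. Summed over 13 genes of MHC class II presentation, the cells held 33913, 32026, 31303, 30282, 29751 and 29972 CPM, a narrow range over the libraries. Over all libraries the same sum was 33372 CPM in type 1 dendritic cells, 14512 CPM in mature migratory dendritic cells and 5979 CPM in classical monocytes. Summed over 17 genes shared by dendritic cells, among them Flt3 and Zbtb46 of the rule, the libraries held 9886, 8064, 6930, 5935, 4222 and 4705 CPM, highest in the control and led by Cst3, and over all libraries the sum was 6655 CPM against 20067 CPM in type 1, 11631 CPM in mature cells and 1779 CPM in monocytes. The sum of 25 type 2 dendritic cell genes, which include Mgl2, Clec10a and Ccl17, was 5793, 4168, 3435, 3963, 3169 and 3256 CPM. Over all libraries it was 3999.9 CPM, above type 1 (1470 CPM) and mature cells (2311 CPM) but not above monocytes (4300 CPM), and its most abundant gene in both was Zeb2. Sirpa, an inhibitory receptor that binds CD47, stood at 268, 197, 231, 222, 191 and 189.7 CPM. Irf4 stood at 118, 102, 74.8, 89.4, 71.2 and 114 CPM. The named type 2 genes Dtx1 and Esam had 0 UMIs. Of the 4 markers that name the population, Clec10a, Mgl2 or Ccl17 was found in 82.4% of the cells beside Cd209a, and 72 of the 410 cells (17.6%) had none of the 3, so these markers name most of the cells but not each of them.

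Markers of other cell types were present at varied levels. The sum of 23 monocyte and macrophage genes was 2904, 1551, 2952, 3137, 3114 and 2384 CPM, and its most abundant gene was Plac8. Over all libraries it was 2669 CPM, against 21178 CPM in classical monocytes, 769 CPM in type 1 and 707 CPM in mature dendritic cells, so type 2 cells held more of this RNA than the other dendritic classes. Of 9 tumor epithelial genes the sum was 51.5, 29.6, 14.6, 12.6, 5.28 and 8.62 CPM, led by Epcam, which dendritic cells can also express, and Krt19, Cldn4, Cldn7, Wfdc2 and Msln were at 0. The sum of 10 neutrophil genes was 3083 CPM in the control, against 1146, 884, 392, 910.02 and 757 CPM in the other libraries. Its most abundant gene was Il1r2, a decoy receptor for interleukin 1, at 1426, 985, 798, 370.2, 872 and 746 CPM. S100a8, an abundant protein of neutrophils, stood at 606 CPM in the control cells, where 17 of 50 cells had a UMI, at 38.6 CPM with 2DG and at or below 6.30 CPM in the other 4 libraries. Over all cells of the control library S100a8 stood at 5114 CPM, and over those of the other libraries between 311 and 919.8 CPM. The part of this RNA in the control values below was not tested.

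Mgl2 and Ccl17 ranked the 6 libraries in the same order, and Clec10a did not follow it. Clec10a was detected in 48%, 55.4%, 61.5%, 71.3%, 65.9% and 73.8% of the cells, and its level was 134 (109 to 162, exact Poisson), 233, 310.5, 387, 386 and 361 CPM. The control cells thus had the lowest Clec10a level and share. Mgl2 stood at 849, 757, 449, 452, 158 and 299 CPM, with the highest values in the control and 2DG libraries. Ccl17 stood at 1221 (1144 to 1301), 743, 192, 496, 83.1 (63.8 to 106) and 165 CPM, highest in the control and lowest with 2DG plus anti-PD-L1. Cells thinned to 2000 UMIs each, none of which was too shallow, gave nearly the same order of libraries. Ccl17 was then found in 59.98%, 30.4%, 11.8%, 20.9%, 6.95% and 12.8% of the cells, Mgl2 in 64.9%, 43.9%, 27.6%, 29.6%, 14.2% and 23.98%, and Clec10a in 18.6%, 29.3%, 34.2%, 42.3%, 41.3% and 41.3%.

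**Figure D2:**
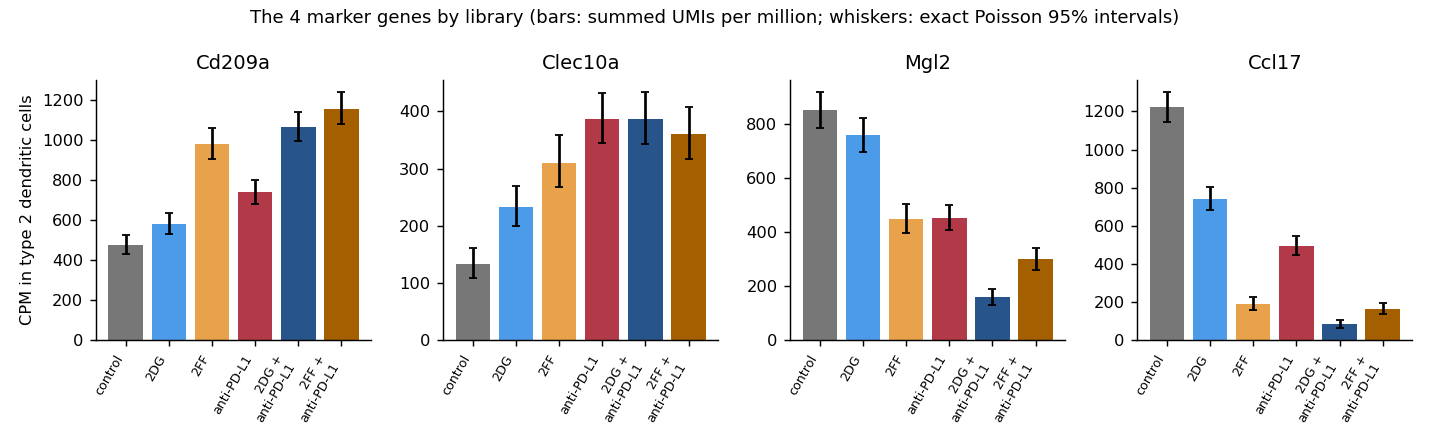
Level of Cd209a, Clec10a, Mgl2 and Ccl17 in the type 2 dendritic cells of each library, in CPM with exact 95% Poisson intervals for counting error. Ccl17 and Mgl2 are highest in the control (1221 and 849 CPM), whereas Clec10a is lowest there (134 CPM).

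Combinations of the 3 markers were also counted within cells. Cells with all 3 of Clec10a, Mgl2 and Ccl17 numbered 17 of 50, 12 of 65, 6 of 65, 13 of 80, 3 of 85 and 5 of 65. Cells with Clec10a alone of the 3 numbered 1, 12, 20, 30, 43 and 25, and cells with Mgl2 and Ccl17 but no Clec10a numbered 21, 10, 5, 5, 4 and 2. In the control, cells with Mgl2 and Ccl17 but no Clec10a were the more common of these, and in the other 5 libraries cells with Clec10a alone were, narrowly so with 2DG. Ccl17 at fixed depth was also lower in the mature migratory dendritic cells of the combination libraries, where it was found in 54.4%, 44.7%, 27.8%, 42.8%, 22.6% and 20.6% of cells, and in type 1 dendritic cells, with 22.7%, 14.98%, 8.30%, 26.3%, 1.42% and 2.20%. As a background, Clec10a had a UMI in 17.2% of type 1 dendritic cells and 1.22% of mature migratory dendritic cells without thinning.

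Against each other class, counts were summed per class and mouse, and the 6 mice were the replicates of a difference between classes. Against 337 type 1 dendritic cells (gated on Xcr1 and Clec9a), 688 of 7278 genes (9.45%) were higher and 508 (6.98%) lower in type 2 cells, at an adjusted p under 0.05 and at least 2-fold. Against 491 mature migratory dendritic cells (gated on Ccr7 and Fscn1), 1119 of 7049 genes (15.9%) were higher and 1011 (14.3%) lower. Against 2086 classical monocytes (gated on Ly6c2), 672 of 8133 genes (8.26%) were higher and 826 (10.2%) lower. Adjusted p values here and below come from edgeR's quasi-likelihood test with Benjamini-Hochberg adjustment, with the mouse as a block, and each log2 fold change is given with its standard error. Genes of the gates are in none of these counts.

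Of 6581 genes tested in all 3 comparisons, 64 (0.972%) were higher and 12 (0.182%) lower in type 2 dendritic cells in each. Lectins led those higher. Cd209d, another member of the Cd209 family, stood at 19.3, 77.2, 219, 147, 92.3 and 125 CPM, and at a mean of 1.34 CPM in type 1 and 1.34 CPM in mature migratory dendritic cells. The log2 fold change was 6.42 ± 0.40 against type 1 cells (adjusted p = 1.9e-07) and 6.39 ± 0.37 against mature cells (adjusted p = 1.8e-08). In monocytes Cd209d had 0 of 18116433 UMIs, so it was at least 662-fold higher in type 2 cells, taking 3 UMIs over all monocytes as the limit that a count of 0 allows. The monocyte class also held 0 UMIs of Cd209a, Flt3 and Zbtb46, and the type 1 class 0 of Cd209a. Cells with Cd209 family RNA may therefore be missing from these classes. How far this raised the differences of Cd209 family and dendritic genes was not tested. Cd209d was lowest in the control and highest with 2FF. Cd209c (29.2 CPM over all cells) and Clec4b1 (36.7 CPM), a lectin of the Dectin-2 family, were higher against all 3 classes as well. Clec10a had log2 fold changes of 3.97 ± 0.23 against type 1, 6.02 ± 0.39 against mature cells and 4.28 ± 0.16 against monocytes, and Mgl2 of 3.42 ± 0.31, 3.93 ± 0.26 and 6.34 ± 0.38. Their lowest library in type 2 cells lay above the highest library of each other class.

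Ccl17 behaved differently from the lectins. Its mean was 483 CPM in type 2 cells (83.1 to 1221 over the libraries), 295 CPM in type 1 cells, 726 CPM in mature migratory cells and 2.97 CPM in monocytes. It was higher than in monocytes (log2 fold change 7.31 ± 0.48, adjusted p = 3.9e-07), lower than in mature migratory dendritic cells (-1.14 ± 0.28, adjusted p = 0.0039), and not distinguished from type 1 dendritic cells (0.98 ± 0.38, adjusted p = 0.059). The libraries of type 2 and of both other dendritic classes overlapped. The call against mature cells was lost without the mouse as a block (-0.71), with cells thinned to 2000 UMIs (-0.95), without the 2FF library (-0.98) and without that of the 2DG combination (-0.91).

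**Figure D3:**
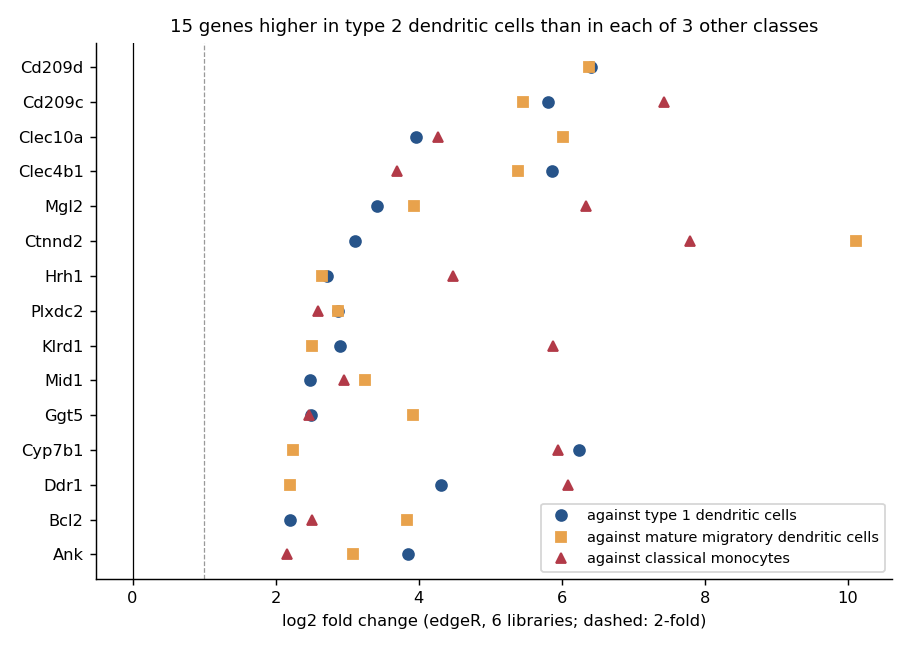
Genes higher in type 2 dendritic cells than in each of the 3 other classes, ordered by the smallest of the 3 log2 fold changes; points give edgeR's log2 fold change against type 1 dendritic cells, mature migratory dendritic cells and classical monocytes. Cd209d has no point against monocytes, where it had 0 UMIs, and Clec10a lies at 3.97, 6.02 and 4.28.

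Other genes of this group are not lectins. Cyp7b1, an enzyme that hydroxylates oxysterols, stood at 21.9, 393, 766, 247, 434 and 305 CPM, lowest in the control. It exceeded type 1 cells (mean 5.30 CPM, log2 fold change 6.25 ± 0.31), mature cells (62.3 CPM, 2.24 ± 0.33) and monocytes (6.14 CPM, 5.96 ± 0.26). Ctnnd2, which codes for delta-catenin, stood at 545, 538, 392, 230.5, 340.3 and 566 CPM, against 53.4 CPM in type 1 cells, 0.176 CPM in mature cells and 1.88 CPM in monocytes. Gfra2, a receptor of the neurturin family, had a mean of 103 CPM and 0.182, 23.7 and 0.283 CPM in the other classes. Bcl11a, a transcription factor of B cell and dendritic cell development, had log2 fold changes of 1.94 ± 0.24, 4.90 ± 0.21 and 3.21 ± 0.24. Chosen after their values were seen, Cdh1 (E-cadherin, 126 CPM over all cells), Ddr1 (a collagen receptor, 62.2 CPM), Klrd1 (the CD94 chain, 176 CPM), Hrh1 (a histamine receptor, 28.7 CPM) and Bcl2 (an inhibitor of cell death, 168 CPM) were higher against all 3 classes too.

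Most measured genes of the type 2 and type 1 dendritic cell lists differed between these classes. Of 18 measured type 2 dendritic cell genes, 11 were higher, 1 was lower (Clec12a) and 6 did not pass. Their median log2 fold change was 2.98 against -0.03 over all genes. Over all genes 9.45% were higher and 6.98% lower than in type 1 cells. Irf4 stood at a mean of 94.8 CPM against 3.89 CPM in type 1 cells (log2 fold change 4.70 ± 0.35, adjusted p = 8.2e-07), and Zeb2, a repressor that favours type 2 over type 1 cells, at 838 against 92.1 CPM (3.405 ± 0.24). Sirpa stood at 216 against 17.1 CPM (3.84 ± 0.28), and Itgam, which codes for CD11b, at 227 against 17.3 CPM (3.75 ± 0.21). Mrc1, the mannose receptor, was the most changed lectin of this comparison outside the Cd209 family, at 257 against 3.79 CPM (6.12 ± 0.25). For Irf4, Zeb2, Sirpa, Itgam and Mrc1 the 6 libraries of one class lay apart from those of the other. All 10 measured type 1 dendritic cell genes were lower, among them Cadm1, an adhesion molecule (9.15 against 832 CPM), Tlr3, a sensor of double-stranded RNA (7.99 against 189 CPM), and Irf8 (156 against 2049.6 CPM, log2 fold change -3.73 ± 0.17). The muscarinic receptor gene Chrm3 had 0 of 4417861 UMIs in type 2 cells and was at least 145-fold lower than in type 1 cells (98.7 CPM). Cst3, often used as a marker of dendritic cells, was lower than in type 1 cells (-2.13 ± 0.16) and mature cells (-1.20 ± 0.19), and higher than in monocytes (1.70 ± 0.23).

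Against monocytes and mature cells other genes led. Of 17 monocyte and macrophage genes tested against monocytes 16 were lower, against 10.2% over all genes. Among them were Lyz2, which codes for lysozyme (357 against 8255 CPM, log2 fold change -4.87 ± 0.32), and Vcan, which codes for the matrix protein versican (5.94 against 499 CPM, -6.43 ± 0.26). Chil3, a chitinase-like protein of myeloid cells, stood at 6.35 against 1192 CPM, and Hp, which codes for haptoglobin, at 8.40 against 422 CPM. Genes higher than in monocytes included Aff3, a nuclear factor of lymphoid cells (265 against 2.78 CPM, 6.48 ± 0.29), and Plet1 (122 against 0.709 CPM). Against mature cells, Mef2c, a transcription factor, was higher (286 against 10.4 CPM, 4.70 ± 0.24). Tmem150c had no UMI in type 2 cells and was at least 338-fold lower than in mature cells, and Fabp4, a fatty acid binding protein, was at least 145-fold lower.

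MHC class II genes set type 2 cells apart from monocytes but hardly from type 1 cells. Of 13 genes measured, 1 was higher than in type 1 cells (Ctss, the protease cathepsin S, log2 fold change 1.14 ± 0.07). The other 12 did not pass both limits, and the median was -0.03. This count was near the share of 9.45% higher over all genes. H2-Ab1 had a mean of 5528 CPM against 6372 CPM in type 1 cells (-0.16 ± 0.06, adjusted p = 0.067), 1877 CPM in mature cells (1.51 ± 0.19) and 606 CPM in monocytes (3.33 ± 0.33). Against mature cells 5 of 13 were higher, against 15.9% over all genes. They included the transactivator Ciita (1.82 ± 0.29) and H2-DMb1, a peptide-loading chain (2.85 ± 0.12). Against monocytes 11 of 13 were higher, against 8.26% over all genes, with a median of 3.33 against 0.03 over all genes.

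Several costimulatory and checkpoint ligands were lower than in mature cells. Of 17 measured, 8 were lower, 3 higher (Havcr2, Lgals9 and Vsir) and 6 did not pass. Over all genes 14.3% were lower and 15.9% higher than in mature cells, so the count of those higher was near its share. Cd40, a receptor for T cell help, stood at 85.8 against 232 CPM (-1.59 ± 0.19), Cd80, a ligand of CD28, at 347 against 823 CPM (-1.40 ± 0.15), and Cd274, which codes for PD-L1, at 529 against 1675 CPM (-1.78 ± 0.11). Cd86, the other CD28 ligand, did not pass, at 925 against 927 CPM. Against type 1 cells, Cd80 (1.41 ± 0.17) and the ligand Tnfsf9 (3.03 ± 0.23) were higher, and Cd274 was not called (0.36 ± 0.13, adjusted p = 0.049, under 2-fold). All 15 measured genes of mature dendritic cells were lower than in that class, where Ccl22 stood at 39.5 against 1320.5 CPM and Ccl5 at 74.5 against 2767 CPM. Il12b, a chain of interleukin 12, stood at 0.239 CPM in type 2 cells, 45.6 CPM in type 1 cells and 289.6 CPM in mature cells.

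Summed over 21 chemokines and receptors, type 2 cells held 3528 CPM over all libraries, against 2010 CPM in type 1 cells, 8741 CPM in mature cells and 9402 CPM in monocytes. Gene counts and sums differed in direction against mature cells, whose most abundant gene of the list was Ccl5. Of 17 genes measured in each comparison, 12 were higher and 5 did not pass against type 1 cells. Against mature cells 10 were higher and 4 lower (Ccl17, Ccl22, Ccl5 and Cxcl16), and against monocytes 1 was higher (Ccl17) and 10 lower. Over all genes 9.45% were higher than in type 1 cells. The shares higher and lower over all genes were 15.9% and 14.3% against mature cells, and 8.26% and 10.2% against monocytes. Cxcl10, an interferon-induced chemokine for Cxcr3, stood at a mean of 331 CPM against 39.0 CPM in type 1 cells (3.24 ± 0.17), 59.2 CPM in mature cells (2.79 ± 0.36) and 679 CPM in monocytes (-1.002 ± 0.15, which fell under 2-fold without either combination library, at -0.90 and -0.95, and with at least 3 Cd209a UMIs, at -0.90). Cxcl9, which binds the same receptor, went the other way against type 1 cells without reaching 2-fold, at 302 against 616 CPM (-0.95 ± 0.15). Ccl4, a chemokine of inflammation, stood at 515 CPM against 172, 44.0 and 814 CPM, and Ccr2, a receptor of monocyte migration, at 258 CPM against 98.0, 17.8 and 749.8 CPM. For Ccr2 the libraries of the classes did not overlap in any of the 3 comparisons.

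Innate sensors and cytokines lay between the other dendritic cells and monocytes for some genes. Tlr2, a sensor of bacterial lipoproteins, stood at 38.1 CPM against 6.51 CPM in type 1, 6.95 CPM in mature cells and 110.1 CPM in monocytes, and was called in each comparison. Il1b, which codes for interleukin 1 beta, stood at 813 CPM against 289 CPM in type 1 cells (1.69 ± 0.21), and was not called against mature cells (572 CPM) or monocytes (954 CPM). Osm, the cytokine oncostatin M, stood at 105 CPM against 8.34, 39.4 and 527 CPM. Of the 23 interferon response genes tested against monocytes, 11 were lower, against 10.2% over all genes, and 12 did not pass. Isg15 was among those lower (139 against 441 CPM, -1.67 ± 0.15). Of 20 genes of this list tested against type 1 cells, 9 were higher, against 9.45% over all genes, and 1 (Iigp1) was lower, against 6.98%. Iigp1 lost its call without the control library (-0.98).

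Proliferation genes were lower in type 2 than in type 1 cells, and the cell cycle sum stood above that of mature cells only in the 3 libraries without anti-PD-L1. With the antibody it was 662, 737 and 699.7 CPM, against 867, 911 and 701.9 CPM in mature cells. Of 19 cell cycle genes tested against type 1 cells 14 were lower, against 6.98% over all genes, and 5 did not pass. Of 11 tested against mature cells 3 were higher, against 15.9% over all genes. Of 11 tested against monocytes 8 were higher, against 8.26% over all genes. Mki67, a marker of cycling cells, stood at a mean of 84.1 CPM in type 2 cells, 175 CPM in type 1 cells, 23.9 CPM in mature cells and 21.6 CPM in monocytes. Of 17 genes of the unfolded protein response, 11 were higher and 1 lower than in mature cells, against 15.9% and 14.3% over all genes. The chaperone Hspa5 was among those higher (936 against 214 CPM, 2.03 ± 0.15). Against type 1 cells 1 was higher and 1 lower, near the shares of 9.45% and 6.98% over all genes.

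The study's agents act on N-glycans, and the enzymes that branch and fucosylate them were measured in the dendritic cells too. Of 12 tested against type 1 cells, Man2a2 and Mgat4a were higher and Mgat4b was lower, counts near the shares over all genes (9.45% and 6.98%). Of 12 tested against mature cells, Gmds and Man2a2 were higher and Fut8, Mgat4b and Tsta3 lower, again near the shares over all genes (15.9% and 14.3%). The calls of Mgat4b and Tsta3 against mature cells fell under 2-fold when 1 of 2 libraries was left out, Mgat4b without 2DG (-0.96) or anti-PD-L1 (-0.95) and Tsta3 without the control (-0.96) or 2DG plus anti-PD-L1 (-0.88). Gmds, the first enzyme of GDP-fucose synthesis from mannose, stood at a mean of 153 CPM against 172 CPM in type 1 cells, 7.35 CPM in mature cells (4.19 ± 0.19) and 48.2 CPM in monocytes (1.60 ± 0.14). Fut8, which adds core fucose, stood at 63.7 against 157 CPM in mature cells (-1.44 ± 0.14). Mgat5, the enzyme that adds the beta-1,6 branch, was lower than in monocytes (87.2 against 186 CPM, -1.16 ± 0.12), a call lost with cells thinned to 2000 UMIs (-0.69). Mgat3 and Fut9 had no UMI in type 2 cells.

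Between treatments, genes were compared, if the 2 libraries together held at least 50 of their UMIs, by the log2 ratio of CPM + 5, which understates the change of low genes. These values describe 1 mouse against 1 mouse. The control library serves 3 of the comparisons and the anti-PD-L1 library 3, so they are not independent. With anti-PD-L1 against control, 218 of 4704 genes (4.63%) were past 2-fold higher and 264 (5.61%) lower. With 2DG against control these were 116 (2.47%) and 187 (3.98%) of 4699, and with 2FF against control 216 (4.9%) and 265 (6.01%) of 4407. With 2DG plus anti-PD-L1 against 2DG, 113 of 4572 genes (2.47%) were higher and 134 (2.93%) lower, or 149 and 103 with TMM scaling. With 2FF plus anti-PD-L1 against 2FF, 51 of 4160 (1.23%) were higher and 57 (1.37%) lower, or 78 and 40 with TMM scaling. Against anti-PD-L1 alone, 2DG plus anti-PD-L1 had 97 of 4556 genes (2.13%) higher and 89 (1.95%) lower (115 and 71 with TMM scaling), and 2FF plus anti-PD-L1 had 70 of 4472 (1.57%) higher and 66 (1.48%) lower (91 and 56). The median log2 ratio over all genes lay between -0.04 and 0.04 in all 7.

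The control cells had lower interferon response RNA than the cells of any other library. Summed over the list, it was 1441 CPM in the control and 2679, 2794, 3084, 2788 and 3306 CPM in the others. Of 17 genes tested with anti-PD-L1 against control, 16 were above 0, 9 past 2-fold higher and 1 past 2-fold lower (median log2 ratio 1.01). With 2DG against control 15 of 16 were above 0 and 5 past 2-fold higher (median 0.91). With 2FF 16 of 17 were above 0, 8 past 2-fold higher and 1 past 2-fold lower (median 0.995). Over all genes 4.63%, 2.47% and 4.9% were past 2-fold higher in these comparisons, and 5.61%, 3.98% and 6.01% lower. Irf1, a transcription factor induced by interferon gamma, stood at 149, 417, 349, 502, 439 and 441 CPM. The interferon-induced GTPase Igtp stood at 12.9, 51.5, 79.7, 76.8, 69.9 and 80.5 CPM. Cxcl10 stood at 116, 241, 343, 469.7, 365 and 453 CPM. For each of Irf1, Igtp and Cxcl10 the control was the lowest of the 6 libraries. The interferon list was also lowest in the control in type 1 dendritic cells (1548 CPM, next 1692), mature cells (1912, next 2268) and monocytes (2122, next 3876).

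Several named genes were highest in the control. Spp1 (osteopontin) stood at 518, 11.6, 11.4, 74.3, 25.1 and 20.1 CPM, and Hmox1 (heme oxygenase 1) at 332, 3.86, 9.75, 16.4, 3.96 and 171 CPM. Both came from few cells: Spp1 had its 403 control UMIs in 14 of 50 cells, and Hmox1 had a UMI in 35 of the 410 cells of all libraries. Cxcl2, a chemokine for neutrophils, stood at 1362, 130.001, 115, 89.4, 305 and 47.4 CPM, and Ccl6 at 634, 133, 94.3, 159.9, 189.9 and 102 CPM. Ptgs2, the inducible cyclooxygenase, stood at 159, 42.5, 17.9, 12.6, 43.5 and 44.5 CPM. The control was the highest library for each of Spp1, Hmox1, Cxcl2, Ccl6 and Ptgs2, followed by anti-PD-L1 for Spp1 and by 2FF plus anti-PD-L1 for Hmox1. The control was not the highest library for the monocyte and macrophage sum given above or for the cytokine sum, which was 1484, 902, 1096, 1078, 1915 and 1418 CPM. Neutrophil RNA was highest in the control, as given above, and its part in these values was not tested.

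Other genes were lowest in the control. Cyp7b1 had the highest log2 ratio of the named genes against control with anti-PD-L1 (3.23), 2DG (3.89) and 2FF (4.84), and 4 of 50 control cells carried it against 19 of 80 with anti-PD-L1. Fabp5, a fatty acid binding protein, stood at 55.3, 377, 397, 219, 553 and 573 CPM. Cd7 stood at 7.72, 51.5, 158, 105, 142 and 103 CPM, and the fractalkine receptor Cx3cr1 at 10.3, 59.2, 68.3, 122, 59.3 and 57.5 CPM. Socs1, an inhibitor of cytokine signaling, stood at 5.15, 32.2, 30.9, 60.4, 51.4 and 48.9 CPM. Pdcd1lg2, which codes for PD-L2, stood at 54.02, 147, 141, 131, 136 and 136 CPM, whereas Cd274 stood at 478, 465, 671, 553, 410.2 and 598 CPM. For Cyp7b1, Fabp5, Cd7, Cx3cr1, Socs1 and Pdcd1lg2 the control was the lowest library, and for Cd274 it was not.

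**Figure D4:**
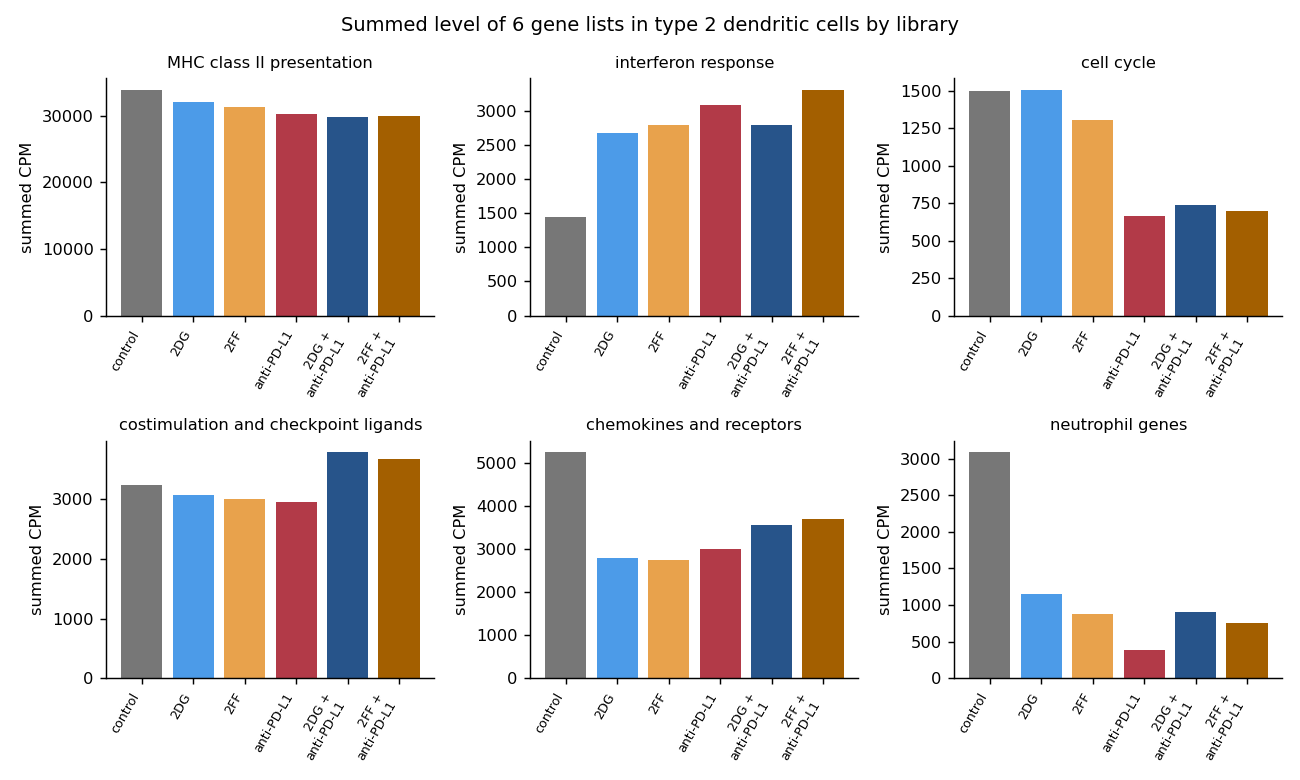
Summed level of gene lists in the type 2 dendritic cells of each library, in CPM. The interferon response sum is lowest in the control (1441 CPM), and the cell cycle sum is lower in the 3 libraries with anti-PD-L1 (662 to 737 CPM) than in the 3 without (1304 to 1506 CPM).

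The 3 pairs of libraries with and without anti-PD-L1 share no library. Of 3943 genes tested in all 3 pairs, 20 (0.507%) were past 1.5-fold higher with anti-PD-L1 in each pair and 38 (0.964%) lower in each. Over these pairs the antibody can also be tested, by a fit with the other agent (none, 2DG or 2FF) as a block, which takes the difference to be alike in the 3 pairs and leaves 2 residual degrees of freedom. By edgeR's quasi-likelihood test, 4 of 7108 genes (0.0563%) were called higher and 13 (0.183%) lower with the antibody. Of the same 7108 genes, 663 (9.33%) had an unadjusted p under 0.05 by this test. The 4 higher were Id3, Dusp2, Sdc4 and Mir155hg, the last chosen after its values were seen. Those lower included Ear2, with the smallest p (-2.98 ± 0.29, adjusted p = 0.0040). G0s2 had the largest change (-5.90 ± 0.72, adjusted p = 0.0064), and both are named here after their values were seen. The neutrophil gene sum given above was lower with the antibody in each pair, and its part in these calls was not tested. Of the 10 genes named for their size in these pairs, 8 were called, which is no independent evidence since the same libraries chose them. They were Dcstamp (-2.74 ± 0.32, adjusted p = 0.0064), Stmn1 (-2.15 ± 0.27, adjusted p = 0.0064), Nav2, Arhgap6, Top2a (-1.49 ± 0.25, adjusted p = 0.039), Cst3 (-1.24 ± 0.18, adjusted p = 0.018), Dusp2 (1.85 ± 0.23, adjusted p = 0.0064) and Sdc4 (1.41 ± 0.22, adjusted p = 0.027), and Plet1 and Rsad2 did not pass. Without the block 3 genes were called, and with cells thinned to 2000 UMIs 2, among them Cst3 (adjusted p = 0.045). Of the 8, only Stmn1 stayed called without the block, and Dusp2, Nav2 and Sdc4 lost their calls with thinned cells. Stmn1, Dcstamp, Arhgap6 and Top2a have no result with thinned cells, so their calls were not tested at equal depth. Top2a was not called by DESeq2 (adjusted p = 0.096), nor by edgeR without the 2FF pair (adjusted p = 0.086). Sdc4 also lost its call by edgeR without that pair (adjusted p = 0.051). Proliferation genes were among those lower with the antibody. Summed over the cell cycle list, the libraries without anti-PD-L1 held 1499.8, 1506 and 1304 CPM and those with it 662, 737 and 699.7 CPM, in the order alone, with 2DG and with 2FF. All 8 cell cycle genes tested were below 0 with anti-PD-L1 against control and 6 of them were past 2-fold lower (median -1.42). With 2DG, 6 of 7 were below 0 and 3 past 2-fold (median -0.83), and with 2FF 7 of 7 and 3 (median -0.68). Over all genes 5.61%, 2.93% and 1.37% were past 2-fold lower in these pairs. Over the alternatives the cell cycle medians ran from -2.10 to -0.26, from -1.20 to -0.59 and from -0.93 to 0.00. The first was -0.55 without cells over 30000 UMIs, and with cells thinned to 2000 UMIs the first was -0.69 and the last was 0.00. Stmn1, a regulator of microtubules in dividing cells, stood at 92.6, 135 and 127 CPM without and 23.9, 19.8 and 34.5 CPM with the antibody. These levels rest on few cells, 7, 12 and 11 without and 3, 4 and 8 with it. Top2a, a topoisomerase of dividing cells, stood at 100.3, 103 and 73.1 CPM without and 35.3, 38.2 and 22.99 CPM with it, but its UMIs came from only 6 to 10 cells of each library. In type 1 dendritic cells the cell cycle sums were 2851, 2077 and 2472 CPM without and 1920.1, 2109.8 and 1877 CPM with the antibody, so they lay closer together.

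Dcstamp, a membrane protein needed for the fusion of osteoclasts and macrophages, came first when genes were ranked by the smallest of their 3 log2 ratios. It stood at 329, 73.4 and 101 CPM without anti-PD-L1 and 62.97, 13.2 and 5.75 CPM with it, with log2 ratios of -2.30, -2.11 and -3.30. It was found in 25, 9 and 5 cells without and in 5, 1 and 3 cells with the antibody, so the last 2 levels rest on few cells. Nav2 stood at 239, 108 and 86.2 CPM without and 30.2, 25.1 and 22.99 CPM with it, and Arhgap6, a GTPase activating protein, at 166, 87.5 and 95.9 against 47.9, 26.4 and 18.7 CPM. Nav2 also rests on few cells, 22, 11 and 6 without and 4, 6 and 3 with the antibody. In all 3 genes each library with anti-PD-L1 was below each library without it. Such separation, here and for Cst3 and Sdc4 below, is no independent evidence, since the same libraries chose the genes. Its share over all genes was not counted. Plet1, a surface protein, stood at 323, 172 and 71.5 CPM without and 115, 18.5 and 33.05 CPM with the antibody, and there the groups overlapped. Plet1 had UMIs in 31, 15 and 8 cells without and in 12, 3 and 3 cells with it. Rsad2, an antiviral gene (viperin), stood at 149, 77.2 and 71.5 CPM against 45.3, 34.3 and 33.05 CPM, although most of the interferon list was above 0 with anti-PD-L1 against control. Its UMIs came from 5, 7 and 7 cells without and 6, 13 and 11 cells with the antibody, so its level was lower with the antibody while the number of cells with a UMI was not.

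Cst3 was lower with anti-PD-L1 in each pair and was measured in nearly every cell. It stood at 7129.7, 5460.04 and 4195 CPM without and 3351, 1741 and 1999 CPM with the antibody, with log2 ratios of -1.09, -1.65 and -1.07. Each library with the antibody was below each library without it. In mature migratory dendritic cells Cst3 stood at 7429, 8759 and 9472 CPM without and 6858, 6799.5 and 5767 CPM with the antibody, and in type 1 cells at 18073, 16636 and 19035 CPM against 17248, 13589 and 11983 CPM. Monocytes stood at 916, 1149 and 1245 CPM against 997, 1095 and 894 CPM.

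Dusp2 and Sdc4 went the other way. Dusp2, a phosphatase that acts on MAP kinases, stood at 18.01, 54.1 and 89.4 CPM without and 59.2, 211 and 296 CPM with anti-PD-L1 (log2 ratios 1.48, 1.87 and 1.67). Its lowest value with the antibody lay below its highest value without it. Sdc4, a heparan sulfate proteoglycan, stood at 97.8, 91.4 and 141 CPM without and 217, 297 and 343 CPM with it, and these groups did not overlap. Sdc4 had a UMI in 20 of 50, 25 of 65 and 26 of 65 cells without, and in 38 of 80, 48 of 85 and 41 of 65 cells with the antibody. Chosen after its values were seen, Foxn3, a forkhead factor, stood at 439, 489 and 483 CPM without and 814, 864 and 842 CPM with the antibody.

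**Figure D5:**
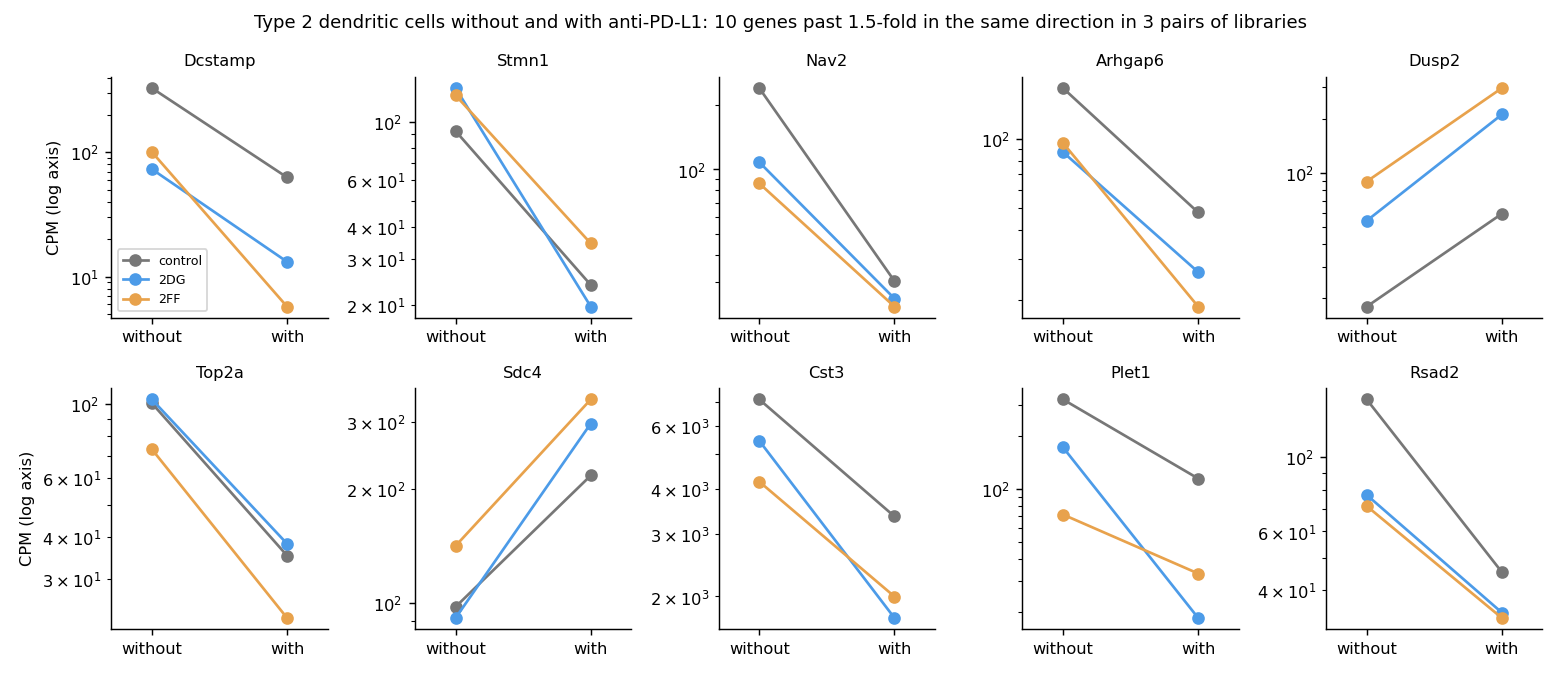
Level in type 2 dendritic cells, in CPM, of the 10 genes past 1.5-fold in the same direction in all 3 pairs of libraries with and without anti-PD-L1, chosen by their smallest log2 ratio. Dusp2 and Sdc4 are higher with the antibody in each pair, and the other 8, among them Cst3 and Dcstamp, are lower.

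Genes of chemokines and their receptors mostly had ratios above 0 in the combination libraries against 2DG or 2FF alone, although fewer were past 2-fold. The list's sum was highest in the control (5241 CPM, against 3554 and 3703 CPM in the combinations). With 2DG plus anti-PD-L1 against 2DG, 13 of 16 genes were above 0 (median 0.62), 6 past 2-fold higher and 1 past 2-fold lower. With 2FF plus anti-PD-L1 against 2FF 13 of 16 were above 0 (median 0.42, or 0.23 to 0.54 over the alternatives), 3 past 2-fold higher and 1 lower. Over all genes 2.47% were past 2-fold higher and 2.93% lower in the 2DG pair, and 1.23% and 1.37% in the 2FF pair. A list of 20 genes of dissociation and stress moved by a like amount with 2DG plus anti-PD-L1 against 2DG (15 of 20 above 0, median 0.61) but not in the 2FF pair (12 of 20, median 0.05). Its sum was 16086, 10959, 13731, 14378, 15716 and 14780 CPM, lowest with 2DG alone, and its part in the chemokine values was not tested. Ccl4 stood at 255, 314, 585, 232, 870.5 and 836 CPM and was highest in both combination libraries. Cd86 stood at 754, 898, 831, 738, 1278 and 1052 CPM and was also highest there. Il1b stood at 869.5, 553, 597, 543, 1422 and 892 CPM. Mt2, a metallothionein, stood at 121, 7.72, 8.13, 17.6, 96.3 and 58.9 CPM, and the hypoxia-induced gene Ndrg1 at 86.2, 14.2, 82.9, 17.6, 128 and 63.2 CPM, so neither separated the combinations from the control. Id3, an inhibitor of E protein transcription factors, stood at 5.15, 19.3, 19.5, 27.7, 83.1 and 118 CPM and was highest in both combinations. The peptide transporter Slc15a2 stood at 69.5, 15.4, 35.8, 136, 17.1 and 10.1 CPM.

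Lymphocyte RNA was uneven in one library. The sum of 16 lymphocyte genes was 73.3, 90.1, 143, 113, 496 and 112 CPM. With 2DG plus anti-PD-L1 it was led by the cytotoxic protease genes Gzma (231 CPM, in 6 of 85 cells) and Gzmb (140 CPM, in 4 of 85 cells), while Cd3d, Cd3e, Cd3g and Cd79a were at 0 by the rule. The part of these cells in the values of that library was not tested.

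The sum of the N-glycan enzymes was 893, 718, 688, 733, 728 and 739.9 CPM, highest in the control and close together in the other 5 libraries. With anti-PD-L1, 2DG and 2FF against control, 6, 6 and 7 of 8 tested genes were below 0, with medians of -0.10, -0.26 and -0.14. Gmds stood at 181, 162, 158, 147, 94.96 and 174 CPM, Fut8 at 83.6, 50.2, 60.1, 47.9, 65.9 and 74.7 CPM, and Mgat5 at 90.04, 78.5, 58.5, 108, 116 and 71.8 CPM. Both 2FF libraries were the lowest for Mgat5 and lay within the range of the others for Gmds and Fut8. Genes of the unfolded protein response were mostly above 0 against the control, with 16 of 16 with anti-PD-L1 (median 0.31), 14 of 15 with 2DG (median 0.16) and 13 of 15 with 2FF (median 0.23), but 1, 0 and 0 of them were past 2-fold. Over all genes 4.63%, 2.47% and 4.9% were past 2-fold higher in these comparisons. The median of the unfolded protein response with 2DG ran from -0.07 to 0.29 over the alternatives. MHC class II genes had medians between -0.15 and 0.00 in all 7 comparisons.

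Among the genes that varied most between cells of a library, beyond counting, were Cxcl9, Ccl17, Adam23, Cacnb2, Fabp5, Mrc1, Gas7, Il1rap and Dhx40. Cxcl9 was found in 32.4% of the cells, at 187, 369, 301, 307, 237 and 411 CPM. Mrc1 was found in 40.5% of the cells, at 152, 149, 312, 378, 224 and 326 CPM. Cxcl9 was lowest in the control.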

How the data were processed

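Single-cell RNA of 6 mice, 1 per treatment, was measured with the 10x method. The files deposited by the authors hold unnormalized UMI counts of 32285 genes in each cell, made with Cell Ranger on the mouse mm10 reference. The submitters' processing notes name version 3.1.0, whereas the file headers and the study's methods name a later one, and whether intronic reads were counted depends on this version and its settings. Libraries held 61859753 to 73885214 UMIs, and no column was left unmatched to a sample.

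Cells with under 250 genes or over 5% mitochondrial UMIs were left out (the study's limits), and the gates were applied to raw counts. No doublet caller was run; cells over 30000 UMIs were left out in an alternative. Members, gene lists and tests were chosen with earlier results of these data known. Clec7a, Clec6a, Amica1 and Mx1 were not analysed here, and some genes that the naming rule picks are not reported here.

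UMIs were summed per class and mouse. Classes were compared with edgeR 4.0.16 (R 4.3.3), using the quasi-likelihood test with TMM scaling, the mouse as a block and Benjamini-Hochberg adjustment over all genes. A gene was called at an adjusted p under 0.05 and at least 2-fold, and standard errors follow from the F statistic. DESeq2 1.42.0 was an alternative. Treatments were compared by log2 ratios of CPM + 5, without a test, for genes reaching 50 UMIs in both libraries together. A fit over the 3 pairs with and without anti-PD-L1, with the other agent as a block, was added after seeing the data. Sums have exact Poisson and shares exact Clopper-Pearson intervals at 95%.

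Named are gate genes, members of 22 lists, the 8 genes of largest fold in each direction per class comparison (at least 50 CPM in the higher class), the 5 highest and 5 lowest log2 ratios per treatment comparison, up to 10 genes past 1.5-fold in all 3 anti-PD-L1 pairs, and the 10 most abundant and most variable genes. The ranked groups hold no haemoglobin, antigen receptor, mitochondrial or ribosomal protein gene, no Xist, and, between treatments, no gene under 20% of its CPM over all cells.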

Additional observations from a re-analysis of the deposited data

Results flagged for a closer look

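Over the 6 libraries, each of which had another treatment, 45 summed levels and shares were tested for 1 library far from the others, by its gap to the nearest library over the whole range (Dixon's 95% limit), and 4 were past it. Chance gives about 1 in 20. The neutrophil gene sum of type 2 dendritic cells was far higher in the control, at 3083 CPM against 1146 CPM in the next library. The lymphocyte gene sum was far higher with 2DG plus anti-PD-L1, at 496 CPM against 143 CPM, and was led by Gzma and Gzmb. The interferon response sum was far lower in the control, at 1441 CPM against 2679 CPM. The N-glycan enzyme sum was highest in the control, at 893 CPM against 739.9 CPM.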

How the results depend on the processing

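With 1 mouse per treatment, depth and differences between mice limit every comparison of treatments, and 50 to 85 cells per library leave genes of few cells imprecise. The share of type 2 dendritic cells was 0.794%, and became 1.003% with at least 1 Cd209a UMI, 0.693% with at least 3, 33.1% of the cells of the 3 dendritic gates and 0.190% when cells were thinned to 2000 UMIs before the gate. The control was the lowest library under all 8 settings, and 2DG plus anti-PD-L1 the highest except with at least 1 Cd209a UMI, where anti-PD-L1 was. Called genes numbered 1196, 2130 and 1498 against type 1 cells, mature cells and monocytes. They were 2134, 3545 and 2624 with no filter but at least 1 UMI, and 409, 931 and 823 with cells thinned to 2000 UMIs, where fewer UMIs were tested. Leaving out 1 mouse gave 1190 to 1247, 2105 to 2234 and 1502 to 1585. All groups carry replicate number 1 in the labels, so the block in these fits is the mouse that gave both classes. Without this block 1189, 2106 and 1484 genes were called. Of single genes named or listed, 103 values became called and 117 lost their call over all alternatives of the class comparisons, and 8432 did neither, and none reversed.

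Genes past 2-fold between treatments numbered 482 (anti-PD-L1 against control), 247 (2DG plus anti-PD-L1 against 2DG), 108 (2FF plus anti-PD-L1 against 2FF), 303 (2DG against control), 481 (2FF against control), and 186 and 136 (2DG and 2FF plus anti-PD-L1 against anti-PD-L1). With 20 CPM added, all but 2FF against control moved, to 303, 142, 51, 159, 108 and 71. With at least 20 UMIs they were 870, 529, 324, 609, 914, 422 and 349, with at least 200 UMIs 147, 66, 14, 79, 151, 58 and 30, and with cells thinned to 2000 UMIs 117, 76, 33, 70, 119, 78 and 38. More or fewer genes are tested under these limits. Leaving out cells over 30000 UMIs or Gm42418, alternatives chosen after seeing the data, kept these counts within 1.5 times.

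Genes called over the 3 pairs with and without anti-PD-L1 numbered 17. They were 17 with DESeq2 and 22 without TMM scaling, 23 with at least 3 Cd209a UMIs, 211 with no filter but at least 1 UMI, 3 without the block and 2 with cells thinned to 2000 UMIs. Leaving out 1 pair gave 47 to 109 genes, on 1 residual degree of freedom. Of the values of the 10 named genes, 13 lost their call, 8 gained one, 64 did neither, and none reversed. All these alternatives were chosen after seeing the data.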
